A study of Mus musculus with 18 samples.

Results

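The response of wild-type mouse embryonic stem cells to 3 h without leucine was read from 3 leucine-starved wild-type libraries (Wt Leu) set against 3 unstarved wild-type libraries (Wt Unstarved), 6 of the 18 libraries of the series, chosen by their genotype and treatment labels. The cells were of the E14 line, kept on gelatin with 15% serum and 10 ng/ml of leukaemia inhibitory factor (LIF). For starvation they were moved to SILAC medium with 5% dialyzed serum, LIF and lysine. Wt Leu cells had arginine but no leucine, Wt Arg cells (3 libraries) had leucine but no arginine, and Wt Unstarved cells received the same medium with every amino acid. Leucine-starved and unstarved cells of genotype Eif2ak4-/- (GCN2 knock-out; Gcn Leu and Gcn Unstarved, 3 libraries each) served to compare the leucine response of wild type with that of cells without the kinase. The labels do not say whether the knock-out line is 1 clone.

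Cells read a shortage of leucine through more than 1 route. When a tRNA is uncharged, the kinase GCN2 phosphorylates eIF2α, which slows general translation and favours translation of the transcription factor ATF4, whose targets include genes for amino acid synthesis, amino acid uptake and tRNA charging. Loss of leucine also frees the sestrins to restrain the GATOR and Rag GTPase machinery that brings mTORC1 to the lysosome, and lower mTORC1 activity lets the factors TFEB and TFE3 enter the nucleus and drive lysosomal genes through sites known as CLEAR elements. In mouse embryonic stem cells TFE3 and its partner folliculin are also known for their part in the exit from pluripotency.

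Library totals were 21.3, 31.3 and 21.6 M (mega) counts in Wt Leu and 30.1, 24.8 and 22 M in Wt Unstarved, so depth did not part the groups. The first principal component of the 9 wild-type libraries carried 48% of the variance, with Wt Leu at 7.87 to 12.2, Wt Arg at 23.4 to 24.9 and Wt Unstarved at -38 to -31. Summed embryonic stem cell markers stood at 6905 to 7609 CPM (counts per M counts of the library) in Wt Leu and 7094 to 7921 CPM in Wt Unstarved, with 3 of 10 members higher and 2 lower (1 lower without Wt Leu 1, Wt Leu 2 or Wt Unstarved 3). Fibroblast markers summed to 145 to 172.6 CPM in Wt Leu and 161.3 to 191.7 CPM in Wt Unstarved (1 of 8 tested higher, or 0 without Wt Leu 3 or Wt Unstarved 2, and Fap at 0 in all 6 libraries). Primitive endoderm markers summed to 384.9 to 487 CPM in Wt Leu and 367.2 to 459.3 CPM in Wt Unstarved (1 of 10 higher, or 0 without Wt Leu 2, Wt Leu 3, Wt Unstarved 1 or Wt Unstarved 2 and with the GC correction described below). Trophoblast markers summed to 55.5 to 58.3 CPM in Wt Leu and 64.14 to 68.98 CPM in Wt Unstarved, with no overlap, and 2 of 8 tested were lower (1 without Wt Leu 2 and with the GC correction). Neural markers summed to 263.6 to 280.0 CPM in Wt Leu and 230.9 to 273.7 CPM in Wt Unstarved, with 0 of 6 called (2 higher at an unadjusted p under 0.05 in edgeR, 0 in DESeq2 and limma-voom; 1 called without Wt Leu 1). With the replicate number as a block in the fit, rises numbered 2 among fibroblast, 5 among primitive endoderm and 2 among neural markers. Falls then numbered 1 among fibroblast and 4 among trophoblast markers. The part of these cell types in the results was not tested. Eif2ak4, which encodes GCN2, checked the genotype labels. On the scale of all 18 libraries it stood at 26.98, 27.5 and 28.1 CPM in Wt Leu, against 32.2, 33.4 and 29.6 CPM in Wt Unstarved, and at 4.498, 4.03 and 5.43 CPM in Gcn Leu, against 6.22, 4.84 and 4.62 CPM in Gcn Unstarved, with no overlap between genotypes. The overlapping-rRNA gene Gm42418, read here as a sign of RNA quality, took 1.28, 0.887 and 0.61% of counts in Wt Leu and 0.224, 0.431 and 1.21% in Wt Unstarved, and its part in the results was not tested. The labels do not state that the replicates are separate cultures. The p-values therefore cover the variation among these libraries alone, and that variation may be technical. In bulk RNA, fewer cells of a type and less RNA per cell cannot be told apart.

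Leucine starvation moved many genes by small amounts and a few by large ones. Of 16140 genes tested with edgeR's quasi-likelihood test, with Benjamini-Hochberg adjustment over all of them, 2497 (15.5%) were higher and 2275 (14.1%) lower in Wt Leu than in Wt Unstarved at an adjusted p under 0.05, or 29.6% in either direction. The median fold among these calls was 1.37 upwards and 1.27 downwards. A log2 fold change of at least 1 was reached by 289 of the higher genes (1.79%) and 85 of the lower ones (0.527%), and of at least 2 by 25 and 1. Large changes were therefore mostly rises. Across 13492 genes with a known GC content of their transcripts, the log2 fold change had a Spearman correlation of -0.275 with GC content, so a fit corrected for GC content was added after the data were seen. That fit made 4929 calls, of which 4025 were shared, and where it ended the call of a named gene this is stated with that gene. The gene lists are read against these shares and against a median log2 fold change of 0.01 over all genes. The largest shares of rises among those described here stood in ATF4 effectors (66.7%), Krüppel-like factors (66.7%) and lysosomal genes (61.5%). Falls made up 50% of the p53 list, 48.1% of the NRF2 list and 42.3% of the sterol list.

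**Figure D1:**
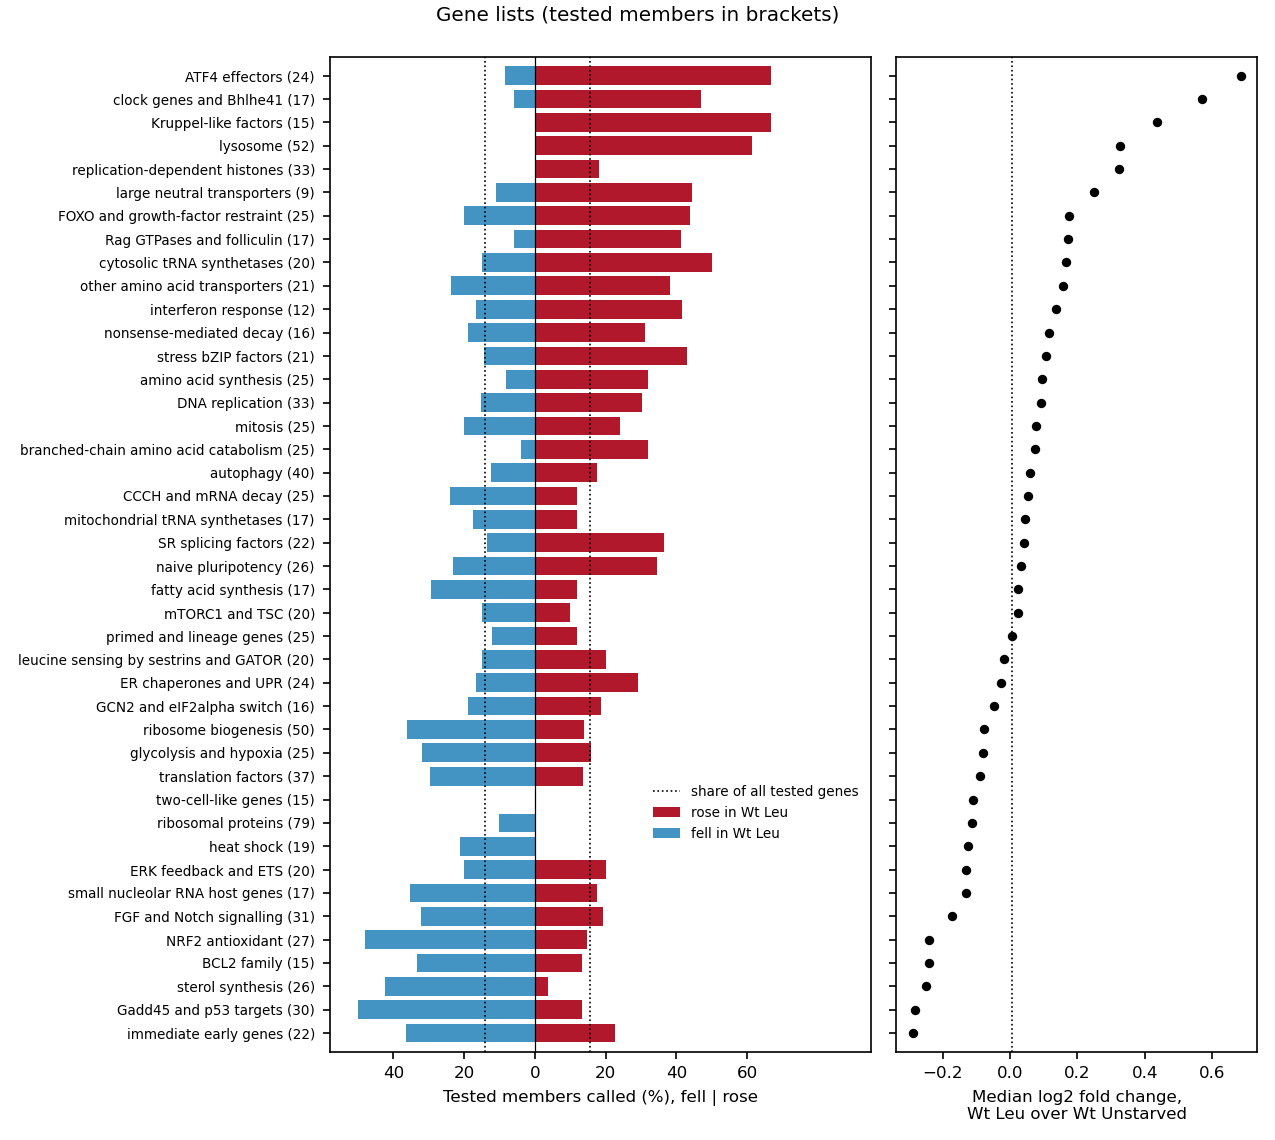
Percentage of tested members of each gene list that were called lower (left bars) or higher (right bars) in Wt Leu than in Wt Unstarved, with dotted lines at the 14.1% and 15.5% of all tested genes, and beside it the median log2 fold change of each list. Of the lysosome list 32 of 52 members rose, and of the p53 list 15 of 30 fell.

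The leading rises included several transcriptional regulators. In what follows CPM are given for libraries 1, 2 and 3 of a group, after TMM scaling, and each ± after a log2 value is its standard error with 3 libraries in a group. Bhlhe41 (DEC2), a repressor that also acts in the circadian clock, stood at 30.3, 43.9 and 33.9 CPM in Wt Leu, against 4.62, 4.38 and 4.46 CPM in Wt Unstarved, and every starved library lay above every unstarved one (log2 fold change 3.01 ± 0.16, edgeR adjusted p = 7.95e-08). Ddit3, which encodes the stress transcription factor CHOP, stood at 57.1, 61.6 and 60.6 CPM in Wt Leu, against 11.04, 5.73 and 8.55 CPM in Wt Unstarved (log2 fold change 2.81 ± 0.16, edgeR adjusted p = 4.03e-07). Its starved libraries lay close together and far above the unstarved ones. On build GRCm38 its gene (chr10:127290774-127296288, plus strand) overlaps the end of Mars (chr10:127296221-127311786, minus strand), and the strand setting of the counting is not given. Hrk, a pro-apoptotic BH3-only protein, stood at 14.97, 21.3 and 20.3 CPM in Wt Leu, against 5.45, 4.01 and 5.53 CPM in Wt Unstarved (log2 fold change 1.92 ± 0.17, edgeR adjusted p = 5.5e-06). Tsc22d3 (GILZ), a glucocorticoid- and FOXO-responsive leucine zipper protein, stood at 14.04, 16.3 and 13.3 CPM in Wt Leu, against 4.36, 3.73 and 4.78 CPM in Wt Unstarved (log2 fold change 1.77 ± 0.12, edgeR adjusted p = 4.6e-08). Txnip, an arrestin-like protein that binds thioredoxin and limits glucose uptake, stood at 388, 437 and 439.9 CPM in Wt Leu, against 120.1, 129 and 138 CPM in Wt Unstarved (log2 fold change 1.71 ± 0.07, edgeR adjusted p = 1.59e-10). The leading rises, and the leading falls below, were chosen among called genes without overlap between the groups. Their lack of overlap, here and where they are named again, is therefore no further result. The leading rises also include Atf3, Cebpb, Crebrf, Chac1, Vldlr and Klf10, which are described below.

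Further genes of this leading set covered secreted factors, metabolism and signalling. Adm2, a peptide hormone, changed by a log2 of 1.71 ± 0.14, Stc2, the secreted glycoprotein stanniocalcin 2, by 1.48 ± 0.22, and Dll1, a Notch ligand, by 1.47 ± 0.10. Acss1, a mitochondrial acetyl-CoA synthetase, changed by 1.63 ± 0.14, Aqp3, a water and glycerol channel, by 1.51 ± 0.08, and Arrdc3, an arrestin-domain relative of Txnip, by 1.36 ± 0.07. Gadd45g, a stress-response gene, changed by 1.51 ± 0.10, Ciart (CHRONO), a clock repressor, by 1.41 ± 0.11, and the predicted gene AW549877 by 1.37 ± 0.10. All 9 rose, with adjusted p-values in edgeR between 1.14e-09 and 0.00175, and were chosen by the same rule.

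The leading falls were smaller. Ddit4l (REDD2), an inhibitor of mTORC1 signalling, stood at 9.81, 13.7 and 12.3 CPM in Wt Leu, against 27.5, 41.03 and 37.2 CPM in Wt Unstarved (log2 fold change -1.55 ± 0.19, edgeR adjusted p = 0.000223). Cbr3, a carbonyl reductase and NRF2 target, stood at 12.9, 19.1 and 16.3 CPM in Wt Leu, against 33.6, 45.04 and 40.6 CPM in Wt Unstarved (log2 fold change -1.29 ± 0.14, edgeR adjusted p = 3.36e-05). In both genes every starved library lay below every unstarved one. Dancr, a non-coding RNA that hosts small nucleolar RNAs, changed by -1.18 ± 0.10, Zc3h12a (regnase-1), an RNase that destroys inflammatory mRNAs, by -1.12 ± 0.13, and Slc19a2, a thiamine transporter, by -1.12 ± 0.08. Zfp750 changed by -1.49 ± 0.23, Sh3bp5l by -1.15 ± 0.07, Hpdl by -1.12 ± 0.12, Inka2 by -1.08 ± 0.14, Cox6b2 by -1.07 ± 0.11 and Nfkbid, an atypical IκB protein, by -1.10 ± 0.13. These 9 were also chosen among called genes without overlap between the groups.

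**Figure D2:**
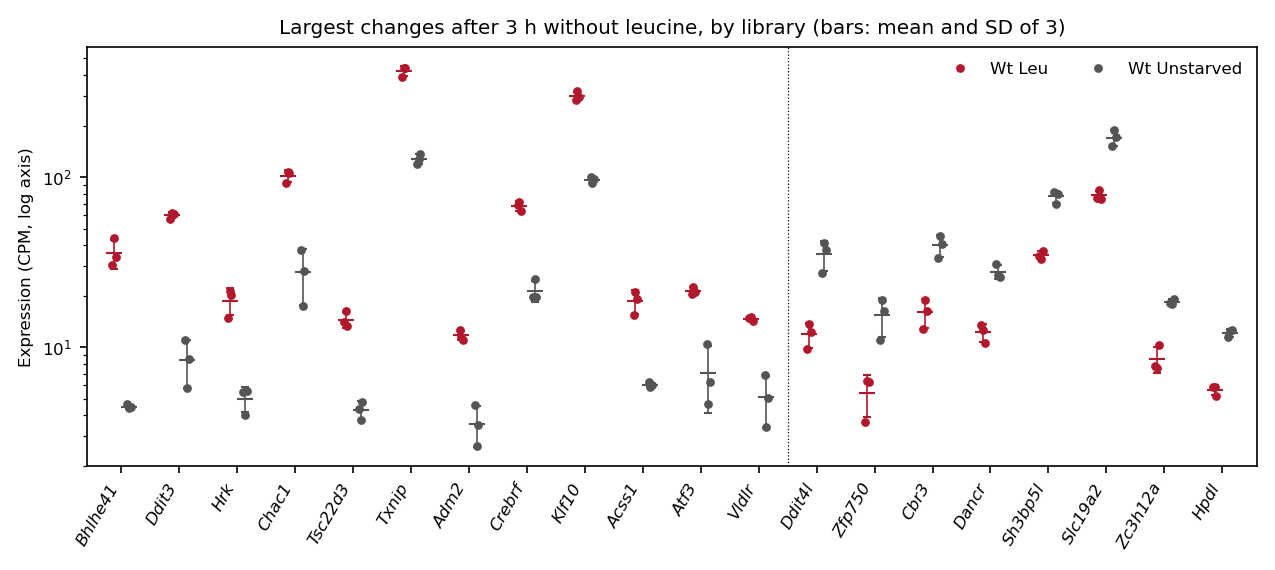
CPM per library on a log axis for the 12 higher and 8 lower genes among those of largest change, with Wt Leu left of Wt Unstarved, points for libraries and bars at group means. The Wt Leu points of Ddit3 sit between 57.1 and 61.6 CPM, all above its Wt Unstarved points, and those of Ddit4l sit below its Wt Unstarved points.

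Members of the GCN2 and ATF4 axis moved unevenly. Atf4 itself stood at 665, 721 and 718 CPM in Wt Leu, against 525, 374 and 479.7 CPM in Wt Unstarved (log2 fold change 0.61 ± 0.09, edgeR adjusted p = 0.000251), with every starved library above every unstarved one. Of 16 genes of the GCN2 and eIF2α switch, 3 rose (18.8%) and 3 fell (18.8%), near the 15.5% and 14.1% of all tested genes. Their median was -0.05, and the lower calls numbered 1 without Wt Leu 1, Wt Leu 2, Wt Unstarved 1 or Wt Unstarved 2. Ppp1r15a (GADD34) and Ppp1r15b (CReP), which direct a phosphatase to eIF2α, changed by 0.52 ± 0.08 and 0.24 ± 0.06. Impact, an inhibitor of GCN2, changed by 0.38 ± 0.09, and Eif2ak1, the haem-regulated eIF2α kinase, by -0.39 ± 0.06. Eif2ak4 fell slightly in wild type (log2 fold change -0.21 ± 0.07, edgeR adjusted p = 0.0341). The call of Eif2ak4 ended without Wt Leu 1, Wt Leu 2, Wt Leu 3, Wt Unstarved 1 or Wt Unstarved 2 (adjusted p up to 0.102), and with library size alone as scaling, no filter, only the groups compared in the fit or all 18 libraries in the fit (up to 0.209).

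Of 21 stress-related bZIP factors and their regulators, 9 rose and 3 fell (median 0.11; lower calls numbered 1 without Wt Leu 2 or Wt Unstarved 3). Atf3, induced downstream of ATF4, stood at 20.5, 22.7 and 21.1 CPM in Wt Leu, against 10.5, 4.63 and 6.22 CPM in Wt Unstarved (log2 fold change 1.57 ± 0.22, edgeR adjusted p = 0.00059). Cebpb, a partner of CHOP, stood at 32.4, 34.7 and 32.2 CPM in Wt Leu, against 12.8, 9.54 and 14.9 CPM in Wt Unstarved (log2 fold change 1.42 ± 0.12, edgeR adjusted p = 9.76e-07). Crebrf, a regulator of CREB3 factors, stood at 69.1, 72.01 and 63.1 CPM in Wt Leu, against 19.8, 25.2 and 19.6 CPM in Wt Unstarved (log2 fold change 1.66 ± 0.09, edgeR adjusted p = 1.34e-08). All 3 belong to the leading rises, which were chosen without overlap between the groups, so their lack of overlap is no further result. Cebpg, which pairs with ATF4, changed by 0.40 ± 0.07, while Atf5, another translationally controlled factor, changed by -0.23 ± 0.08 with overlapping libraries. The call of Atf5 ended without Wt Leu 1, Wt Leu 2, Wt Unstarved 1 or Wt Unstarved 3 (adjusted p up to 0.172). It also ended with library size alone as scaling, only the groups compared in the fit or all 18 libraries in the fit. The GC correction, alone or with the replicate number as a block, ended it too (up to 0.378). With the GC correction the value of Atf5 was -0.07.

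Of 24 ATF4 effectors, 16 rose and 2 fell, with a median log2 fold change of 0.68. The falls were Jmjd6, a protein hydroxylase, at -0.47 ± 0.07 and Tnfrsf10b, a death receptor, at -0.18 ± 0.07 (lower calls numbered 1 without Wt Leu 1, Wt Leu 2, Wt Unstarved 1, Wt Unstarved 2 or Wt Unstarved 3). The call of Tnfrsf10b ended without Wt Leu 1, Wt Leu 2, Wt Unstarved 1, Wt Unstarved 2 or Wt Unstarved 3 (adjusted p up to 0.182), and with DESeq2, limma-voom, library size alone as scaling, no filter, only the groups compared in the fit or all 18 libraries in the fit (up to 0.172). Chac1, an enzyme that degrades glutathione, stood at 92.2, 107 and 107 CPM in Wt Leu, against 37.5, 17.6 and 28.1 CPM in Wt Unstarved (log2 fold change 1.87 ± 0.23, edgeR adjusted p = 0.000767). Slc7a11, the cystine and glutamate antiporter, stood at 3.43, 2.88 and 2.71 CPM in Wt Leu, against 1.33, 0.491 and 0.836 CPM in Wt Unstarved (log2 fold change 1.71 ± 0.24, edgeR adjusted p = 4.92e-05). Trib3, a pseudokinase that restrains ATF4 and CHOP, stood at 128, 168 and 160.1 CPM in Wt Leu, against 80.5, 47.2 and 67.2 CPM in Wt Unstarved (log2 fold change 1.22 ± 0.19, edgeR adjusted p = 0.00177). None of the 3 overlapped between groups, which was a condition of choice for Chac1, though the unstarved libraries of each spread widely. Vldlr, a lipoprotein receptor, stood at 14.9, 15.1 and 14.3 CPM in Wt Leu, against 6.85, 3.398 and 5.06 CPM in Wt Unstarved (log2 fold change 1.51 ± 0.17, edgeR adjusted p = 1.71e-05), and Inhbe, an inhibin subunit, at 5.87, 9.15 and 8.62 CPM in Wt Leu, against 1.73, 1.02 and 1.07 CPM in Wt Unstarved (log2 fold change 2.60 ± 0.25, edgeR adjusted p = 1.13e-05). Among the 16 effectors that rose, Wt Unstarved 1 was the highest unstarved library in 15 (93.8%) and Wt Unstarved 2 the lowest in 15 (93.8%), against 29.8% and 34.9% of all tested genes. The unstarved group was thus ordered the same way across nearly the whole list. Every starved library was still higher for the genes named above other than Jmjd6 and Tnfrsf10b. For Chac1 and Vldlr this was a condition of their choice.

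The promoters of 4 of these genes and of the lysosomal channel gene Mcoln1 are shown because they carry short sequences known to be bound by ATF4 or by TFEB and TFE3. Windows run from 250 bases before to 50 bases after a gene's start, from RefSeq on GRCm38.p6, on the gene's own strand, and matches are in capitals. The amino acid response core searched for ATF4 was TGATGNAA on either strand, and the CLEAR core was TCACGTGA, which reads the same on both strands. The matches begin 193 bases upstream of the start in Chac1 (chr2:119350992-119351291, plus strand), 110 upstream in Atf3 (chr1:191183284-191183583, minus strand), 66 and 47 upstream in Slc7a11 (chr3:50443564-50443863, minus strand), 15 downstream in Trib3 (chr2:152344011-152344310, minus strand) and 46 upstream in Mcoln1 (chr8:3500269-3500568, plus strand; CLEAR core).
Chac1: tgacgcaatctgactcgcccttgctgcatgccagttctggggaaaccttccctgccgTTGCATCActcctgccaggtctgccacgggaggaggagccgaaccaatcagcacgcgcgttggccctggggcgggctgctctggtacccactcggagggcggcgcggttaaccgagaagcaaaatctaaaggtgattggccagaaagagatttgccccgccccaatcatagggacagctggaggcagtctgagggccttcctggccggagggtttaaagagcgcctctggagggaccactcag
Atf3: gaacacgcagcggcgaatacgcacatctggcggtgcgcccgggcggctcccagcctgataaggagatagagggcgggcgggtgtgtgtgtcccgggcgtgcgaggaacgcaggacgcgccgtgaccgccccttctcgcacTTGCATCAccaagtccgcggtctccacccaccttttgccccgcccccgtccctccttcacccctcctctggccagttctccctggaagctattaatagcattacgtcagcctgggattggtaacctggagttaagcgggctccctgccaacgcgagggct
Slc7a11: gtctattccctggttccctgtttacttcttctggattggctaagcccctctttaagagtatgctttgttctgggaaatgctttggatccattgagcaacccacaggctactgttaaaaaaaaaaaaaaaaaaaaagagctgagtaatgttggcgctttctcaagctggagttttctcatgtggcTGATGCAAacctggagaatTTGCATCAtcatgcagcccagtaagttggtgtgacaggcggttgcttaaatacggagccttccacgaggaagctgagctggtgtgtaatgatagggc
Trib3: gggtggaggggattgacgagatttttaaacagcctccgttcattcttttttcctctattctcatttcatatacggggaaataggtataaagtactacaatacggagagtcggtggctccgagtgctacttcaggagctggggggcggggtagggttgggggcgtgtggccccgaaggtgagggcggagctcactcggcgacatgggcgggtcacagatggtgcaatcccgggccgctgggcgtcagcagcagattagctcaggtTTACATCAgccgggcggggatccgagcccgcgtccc
Mcoln1: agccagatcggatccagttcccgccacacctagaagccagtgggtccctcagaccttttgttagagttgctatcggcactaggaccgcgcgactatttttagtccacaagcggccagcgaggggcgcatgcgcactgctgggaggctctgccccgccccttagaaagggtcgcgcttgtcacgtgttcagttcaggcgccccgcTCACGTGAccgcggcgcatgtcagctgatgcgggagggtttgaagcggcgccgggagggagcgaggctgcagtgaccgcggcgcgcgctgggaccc

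The ATF4 core was in 3.97% of all 32851 promoter windows and in 305 of 11190 tested genes with a window (2.73%). It was in 10 of the 20 tested ATF4 effectors with a window (50%) and in 9 of the 15 that rose (60%), and in 22 of 202 genes (10.9%) that rose by a log2 of at least 1. Among synthetases it was in 5 of 12 with a window (41.7%) and in 4 of the 6 that rose (66.7%). The window of Ddit3 held no match. These are letter matches only, and absence from a window says nothing about the factor. The lists were written from general knowledge with results of these data known, so the shares within them are no independent support.

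Genes that make, charge and carry amino acids rose in part. Of 25 genes of amino acid synthesis, 8 rose and 2 fell (median 0.09; lower calls numbered 4 without Wt Unstarved 1). Asns, asparagine synthetase, stood at 476, 480.0 and 471 CPM in Wt Leu, against 389.9, 349 and 366 CPM in Wt Unstarved (log2 fold change 0.37 ± 0.06, edgeR adjusted p = 0.000178). Gpt2, a mitochondrial alanine aminotransferase, changed by 0.65 ± 0.10, Mthfd2, a mitochondrial folate enzyme, by 0.64 ± 0.07, and Glul, glutamine synthetase, by -0.40 ± 0.06. Of 20 cytosolic aminoacyl-tRNA synthetases, 10 rose and 3 fell (median 0.17; lower calls numbered 0 without Wt Leu 1 or Wt Leu 2, and 1 without Wt Unstarved 1). Lars, which charges leucine onto its tRNA and also serves as a leucine sensor, stood at 395, 334 and 394 CPM in Wt Leu, against 274, 275 and 243 CPM in Wt Unstarved (log2 fold change 0.50 ± 0.07, edgeR adjusted p = 7.24e-05), and no library overlapped. The synthetases for alanine (Aars), glutamate and proline (Eprs) and methionine (Mars) changed by 0.43 ± 0.07, 0.42 ± 0.08 and 0.37 ± 0.06. Of 17 mitochondrial synthetases 2 rose (11.8%) and 3 fell (17.6%), against 15.5% and 14.1% of all tested genes. The rises numbered 1 without Wt Leu 1, Wt Leu 2 or Wt Unstarved 2, and the falls 1 without Wt Leu 2.

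Among the carriers, the list of those for large neutral amino acids, which take up leucine, and their relatives did not move as 1 group. Of 9 tested, 4 rose and 1 fell (median 0.25). Slc7a5 (LAT1), the main leucine exchanger, stood at 591, 593 and 645 CPM in Wt Leu, against 621, 567 and 653 CPM in Wt Unstarved (log2 fold change -0.01 ± 0.07, edgeR adjusted p = 0.943), with overlapping libraries. Its heavy-chain partner Slc3a2 (4F2hc) stood at 614, 612 and 617 CPM in Wt Leu, against 382, 330.3 and 384 CPM in Wt Unstarved (log2 fold change 0.75 ± 0.07, edgeR adjusted p = 6.22e-07), with every starved library higher. Slc7a8 (LAT2) changed in the other direction, at 0.657, 0.512 and 0.275 CPM in Wt Leu, against 1.16, 1.105 and 0.929 CPM in Wt Unstarved (log2 fold change -1.15 ± 0.29, edgeR adjusted p = 0.00732). Slc43a2 (LAT4) changed by 0.76 ± 0.09. Slc43a3, listed as a relative of Slc43a2 and not as a leucine carrier, changed by 0.65 ± 0.20. The call of Slc43a3 ended without Wt Leu 1, Wt Leu 3, Wt Unstarved 1 or Wt Unstarved 2 (adjusted p up to 0.0871). Of 21 other amino acid carriers 8 rose and 5 fell (median 0.16). Slc1a4 (ASCT1), a neutral amino acid exchanger, changed by 1.32 ± 0.12, Slc6a9 (GlyT1), a glycine carrier, by 0.99 ± 0.12, Slc7a1 (CAT1), a cationic amino acid carrier, by 0.55 ± 0.08, and Slc6a8, the creatine carrier, by -0.65 ± 0.09.

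Genes of leucine breakdown moved by small amounts. Of 25 genes of branched-chain amino acid catabolism 8 rose (5 without Wt Leu 2) and 1 fell (0 without Wt Leu 1, Wt Leu 2, Wt Unstarved 1 or Wt Unstarved 3), with a median of 0.07. Slc25a44, the mitochondrial branched-chain carrier, changed by 0.84 ± 0.06, the dehydrogenase subunits Dbt and Bckdha by 0.40 ± 0.08 and 0.34 ± 0.07, and methylmalonyl-CoA mutase (Mut) by 0.37 ± 0.09. Of the aminotransferases that start leucine breakdown, Bcat1 changed by 0.18 ± 0.07 (adjusted p = 0.0397 in edgeR) and Bcat2 was not called (-0.11 ± 0.07, adjusted p = 0.291 in edgeR). Bckdk, the kinase that inhibits the dehydrogenase, changed by -0.20 ± 0.07. The call of Bcat1 ended without Wt Leu 1, Wt Leu 2, Wt Leu 3, Wt Unstarved 2 or Wt Unstarved 3 (adjusted p up to 0.186), and with only the groups compared in the fit or all 18 libraries in the fit (up to 0.0833). Without Wt Unstarved 2 the value of Bcat1 was 0.12. The call of Bckdk ended without Wt Leu 1, Wt Leu 2, Wt Unstarved 1 or Wt Unstarved 3 (adjusted p up to 0.146), and with library size alone as scaling, the GC correction, only the groups compared in the fit or all 18 libraries in the fit (up to 0.0902).

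Of 20 genes of the sestrin and GATOR route 4 rose (20%) and 3 fell (15%), near the 15.5% and 14.1% of all tested genes. Their median was -0.02, and the lower calls numbered 1 without Wt Leu 3. Sesn2, the leucine-binding sestrin, stood at 300.4, 358 and 354 CPM in Wt Leu, against 371, 377 and 405 CPM in Wt Unstarved (log2 fold change -0.19 ± 0.07, edgeR adjusted p = 0.0647), with overlapping libraries. In edgeR it was called with no filter (adjusted p = 0.0299) and with the replicate number as a block (0.00283). Sesn1 was not called (0.04 ± 0.10, adjusted p = 0.796 in edgeR), and Sesn3 changed by 0.28 ± 0.09. The call of Sesn3 ended without Wt Leu 1, Wt Unstarved 1 or Wt Unstarved 3 (adjusted p up to 0.0912). Itfg2, a subunit of the KICSTOR scaffold that holds the GATOR1 complex, stood at 77.2, 83.2 and 82.7 CPM in Wt Leu, against 44.2, 44.1 and 44.1 CPM in Wt Unstarved (log2 fold change 0.88 ± 0.06, edgeR adjusted p = 7.1e-08). Castor2, a relative of the arginine sensor, changed by -0.62 ± 0.11. Of 20 genes of mTORC1 and its TSC brake 2 rose (10%) and 3 fell (15%), against 15.5% and 14.1% of all tested genes. Beside Ddit4l, Eif4e, the cap-binding protein, changed by -0.45 ± 0.07, Tsc1 by 0.40 ± 0.07 and Eif4ebp2, a repressor of Eif4e, by -0.23 ± 0.06. Ddit4 (REDD1) and Eif4ebp1 were not called, at -0.07 ± 0.09 and 0.08 ± 0.07 (adjusted p = 0.572 and 0.393 in edgeR). The call of Eif4ebp2 ended without Wt Leu 2 or Wt Unstarved 3 (adjusted p up to 0.054). The higher calls of the mTORC1 list numbered 1 without Wt Leu 3 or Wt Unstarved 1.

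Most lysosomal genes rose. Of 52 tested, 32 rose (61.5%) and 0 fell, with a median log2 fold change of 0.33. At an unadjusted p under 0.05, edgeR had 37 higher and 3 lower, and DESeq2 and limma-voom each called 1 lower. The lower calls numbered 1 without Wt Leu 3 or Wt Unstarved 2. With the replicate number as a block 38 were higher and 3 lower, and with the GC correction 34 and 2. Mcoln1, a calcium channel of the lysosomal membrane, stood at 35.96, 39.95 and 37.9 CPM in Wt Leu, against 21.5, 21.7 and 25.7 CPM in Wt Unstarved (log2 fold change 0.73 ± 0.08, edgeR adjusted p = 6.52e-06). Hexa, a subunit of β-hexosaminidase, stood at 86.3, 108 and 102 CPM in Wt Leu, against 45.3, 42.4 and 46.2 CPM in Wt Unstarved (log2 fold change 1.15 ± 0.09, edgeR adjusted p = 5.06e-07). Ctsa, a carboxypeptidase that shields other hydrolases, stood at 150.1, 169.5 and 167 CPM in Wt Leu, against 78.9, 80.3 and 85.7 CPM in Wt Unstarved (log2 fold change 0.99 ± 0.07, edgeR adjusted p = 4.74e-08). No starved library of the 3 genes overlapped an unstarved one. Idua and Naglu, which degrade glycosaminoglycans, changed by 1.35 ± 0.14 and 1.34 ± 0.18. No change among the called members was larger than that of Idua. The CLEAR core was in 8 of 40 tested members with a window (20%) and in 6 of the 25 that rose (24%), against 228 of 11190 tested genes (2.04%). This list too was written from general knowledge with results known, so its share is no independent support.

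The Rag GTPases and the folliculin complex act upstream of TFE3 on the lysosome. Of 17 genes of this list 7 rose and 1 fell (median 0.17; lower calls numbered 0 without Wt Leu 3, Wt Unstarved 1 or Wt Unstarved 3). Fnip1, the folliculin partner, stood at 81.9, 77.6 and 79.1 CPM in Wt Leu, against 43.6, 47.99 and 37.2 CPM in Wt Unstarved (log2 fold change 0.89 ± 0.08, edgeR adjusted p = 4.48e-07). Rragc and Rragd changed by 0.53 ± 0.07 and 0.52 ± 0.10, and Mitf, a TFEB relative, by 0.52 ± 0.10. Autophagy genes were called at shares near those of all tested genes. Of 40, 7 were higher (17.5%, against 15.5%) and 5 lower (12.5%, against 14.1%). The lower ones numbered 3 without Wt Leu 1. Atg12 and Uvrag changed by 0.70 ± 0.07 and 0.48 ± 0.07, Gabarapl1, an ATG8 protein, by -0.64 ± 0.07, and Ulk2 by 0.45 ± 0.15. The autophagy receptor Sqstm1 was not called (0.13 ± 0.06, adjusted p = 0.124 in edgeR). In edgeR it was called without Wt Leu 1 (adjusted p = 0.0422), with the GC correction (0.018) and with the replicate number as a block (0.0244). The call of Ulk2 ended without Wt Leu 1, Wt Leu 2, Wt Unstarved 1 or Wt Unstarved 3 (adjusted p up to 0.0863), and with DESeq2, no filter or all 18 libraries in the fit (up to 0.0922).

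**Figure D3:**
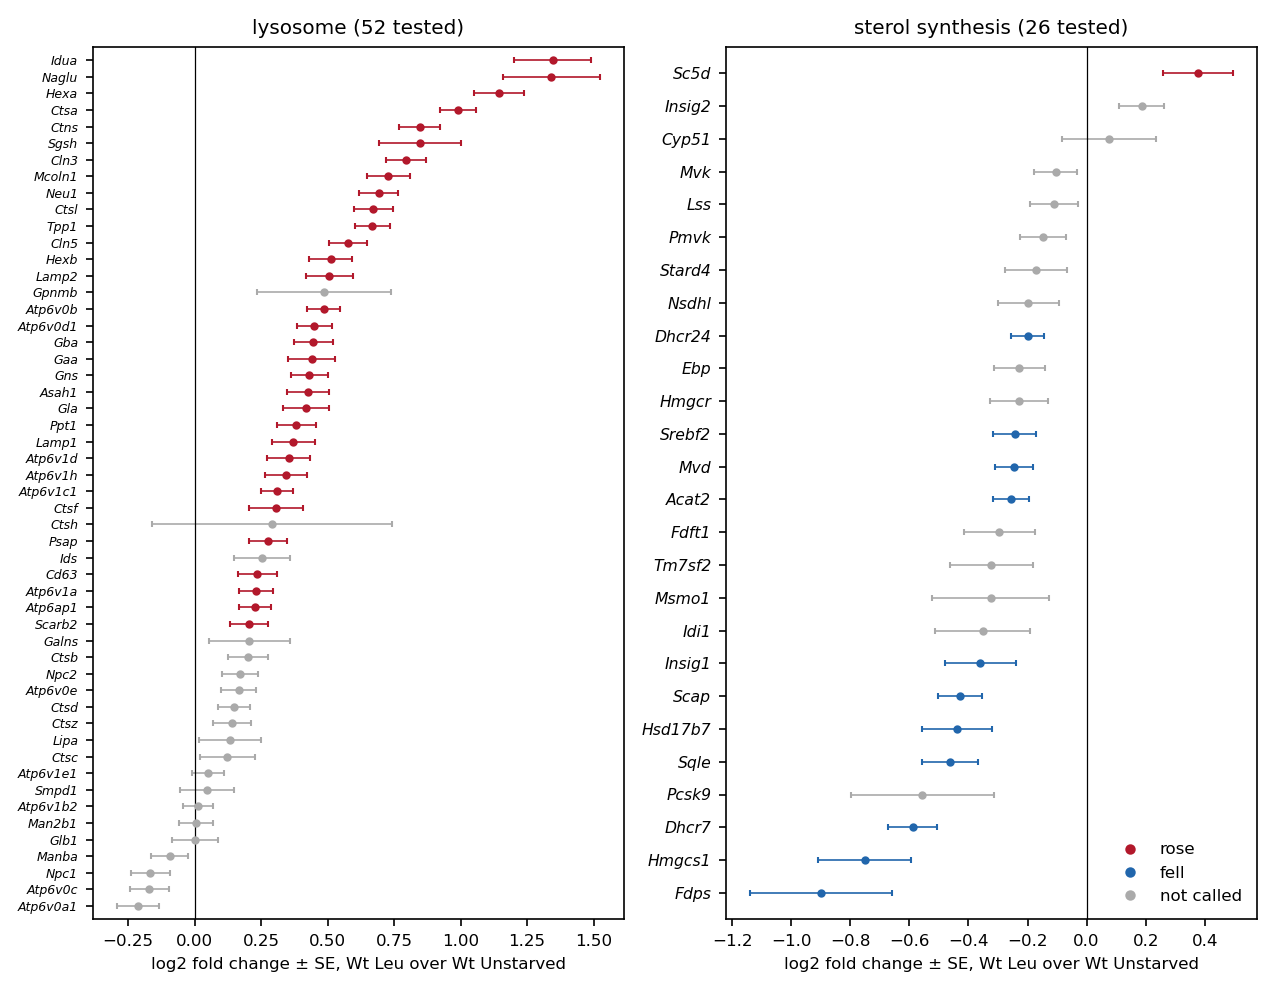
Log2 fold change with its SE, Wt Leu over Wt Unstarved, for every tested member of the lysosome and sterol synthesis lists, coloured where called and grey where not. In the lysosome panel 32 members are called above 0 and 0 below, and in the sterol panel 1 and 11.

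Genes of the FOXO, Krüppel-like and clock lists also rose in part. Of 25 genes linked to FOXO factors and growth-factor restraint 11 rose and 5 fell (median 0.18). Beside Txnip and Arrdc3, Pik3ip1, an inhibitor of PI3 kinase, changed by 1.07 ± 0.15 and Ccng2, an atypical cyclin, by 0.88 ± 0.11. Of 15 Krüppel-like factors 10 rose (66.7%) and 0 fell (edgeR at an unadjusted p under 0.05 had 1 lower, DESeq2 and limma-voom 0), with a median of 0.44. The lower calls numbered 1 without Wt Leu 3, and 1 with the replicate number as a block. Klf10, a TGF-β-inducible repressor, stood at 286, 322 and 296 CPM in Wt Leu, against 100.2, 92.04 and 97.9 CPM in Wt Unstarved (log2 fold change 1.64 ± 0.06, edgeR adjusted p = 1.14e-10). Klf2, a factor of the naive pluripotency network, stood at 673, 729 and 739 CPM in Wt Leu, against 349.6, 294 and 339 CPM in Wt Unstarved (log2 fold change 1.12 ± 0.07, edgeR adjusted p = 2.38e-08). Both lay higher in every starved library, which for Klf10 was a condition of its choice. Klf11 and Klf6 changed by 1.32 ± 0.07 and 1.02 ± 0.09. Of 17 clock genes 8 rose, with a median of 0.57, among them Hlf, a PAR bZIP factor (1.17 ± 0.20), and Bhlhe40 (DEC1), the paralog of Bhlhe41 (1.01 ± 0.09). The 1 that fell was Per1 (-0.28 ± 0.08), and the count of falls was 0 without Wt Leu 2, and 2 without Wt Unstarved 1. The call of Per1 ended without Wt Leu 2 (adjusted p up to 0.0749). It also ended with the GC correction, alone or with the replicate number as a block (up to 0.0999). With the GC correction the value of Per1 was -0.15.

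Genes of sterol synthesis fell in part. Of 26 sterol genes 11 fell and 1 rose, with a median of -0.25. Hmgcs1, which makes the precursor of mevalonate, stood at 123, 146 and 122 CPM in Wt Leu, against 197, 279 and 184 CPM in Wt Unstarved (log2 fold change -0.75 ± 0.16, edgeR adjusted p = 0.00657). Dhcr7, a late enzyme of cholesterol synthesis, stood at 25.6, 29.6 and 24.9 CPM in Wt Leu, against 38.1, 43.4 and 39.4 CPM in Wt Unstarved (log2 fold change -0.59 ± 0.08, edgeR adjusted p = 6.14e-05). Fdps, farnesyl diphosphate synthase, changed by -0.90 ± 0.24, Sqle, squalene epoxidase, by -0.46 ± 0.10, and Sc5d, the 1 gene that rose, by 0.38 ± 0.12. The call of Fdps ended without Wt Unstarved 1 (adjusted p up to 0.0639). The call of Sc5d ended without Wt Leu 2, Wt Unstarved 1 or Wt Unstarved 3 (adjusted p up to 0.115). The higher calls of the sterol list numbered 0 without Wt Leu 2, Wt Unstarved 1 or Wt Unstarved 3. Of 17 fatty acid genes 2 rose and 5 fell. Lpin1, a phosphatidate phosphatase, changed by -1.04 ± 0.14, Fads2, a desaturase, by -0.38 ± 0.07, Elovl6, an elongase, by 0.36 ± 0.08, and Me1, malic enzyme, by -0.35 ± 0.08. The call of Elovl6 ended with all 18 libraries in the fit (adjusted p up to 0.0832). The higher calls of the fatty acid list numbered 1 without Wt Leu 2, Wt Leu 3, Wt Unstarved 1 or Wt Unstarved 3.

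NRF2 and p53 target lists also leaned downwards. Of 27 NRF2 antioxidant genes 13 fell and 4 rose (median -0.24; higher calls numbered 1 without Wt Leu 2, and 2 without Wt Leu 3, Wt Unstarved 1, Wt Unstarved 2 or Wt Unstarved 3). Slc7a11, which is shared with the ATF4 list, was among those that rose. Srxn1, sulfiredoxin, stood at 24.6, 29.2 and 30.1 CPM in Wt Leu, against 48.9, 55.7 and 59.5 CPM in Wt Unstarved (log2 fold change -0.96 ± 0.09, edgeR adjusted p = 1.01e-06). Hmox1, haem oxygenase 1, changed by -0.73 ± 0.06. Of 30 Gadd45 and p53 target genes 15 fell and 4 rose (median -0.28). Plk2, a polo-like kinase, changed by -1.07 ± 0.09, Phlda3, an inhibitor of AKT, by -1.07 ± 0.07, and Btg2, an antiproliferative adaptor of mRNA deadenylation, by -1.05 ± 0.10. Gadd45g moved in the opposite direction. Of 15 BCL2 family genes 2 rose and 5 fell. Hrk lay at the top of that list, whereas the BH3-only genes Bcl2l11 (BIM), Bad and Bmf changed by -0.67 ± 0.09, -0.40 ± 0.10 and 0.34 ± 0.12. The call of Bmf ended without Wt Leu 2, Wt Leu 3, Wt Unstarved 1 or Wt Unstarved 3 (adjusted p up to 0.203), and with DESeq2 size factors, the 1 CPM filter or all 18 libraries in the fit (up to 0.107). Without Wt Unstarved 1 the value of Bmf was 0.225. The higher calls of the BCL2 list numbered 1 without Wt Leu 2, Wt Leu 3, Wt Unstarved 1 or Wt Unstarved 3.

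Genes of the translation machinery shifted slightly. None of 79 ribosomal protein genes rose in edgeR, DESeq2 or limma-voom (0 at an unadjusted p under 0.05 in edgeR). Lower calls numbered 8 (10.1%), a share below the 14.1% of all tested genes, with a median of -0.11. They numbered 5 without Wt Leu 2 or Wt Unstarved 1, and 4 without Wt Leu 3 or Wt Unstarved 3. Rps10 changed by -0.49 ± 0.12, Rpl41 by -0.38 ± 0.13, Rpl18 by -0.29 ± 0.08 and Rpl36a by -0.28 ± 0.10. The call of Rpl41 ended without Wt Leu 2, Wt Leu 3, Wt Unstarved 1 or Wt Unstarved 3 (adjusted p up to 0.128), and with limma-voom, library size alone as scaling, the GC correction or all 18 libraries in the fit (up to 0.36). The call of Rpl18 ended without Wt Leu 3 or Wt Unstarved 1 (adjusted p up to 0.0623), and with the GC correction or all 18 libraries in the fit (up to 0.253). The call of Rpl36a ended without Wt Leu 1, Wt Leu 3, Wt Unstarved 1, Wt Unstarved 2 or Wt Unstarved 3 (adjusted p up to 0.159), and with library size alone as scaling, the GC correction or all 18 libraries in the fit (up to 0.427). Reads of ribosomal protein genes may be shared with pseudogene copies. Of 50 ribosome biogenesis genes 18 fell and 7 rose (median -0.08). Rrp9, of the U3 small nucleolar ribonucleoprotein, stood at 145, 148 and 152 CPM in Wt Leu, against 276, 252 and 287 CPM in Wt Unstarved (log2 fold change -0.87 ± 0.06, edgeR adjusted p = 7.1e-08), and Polr1b, a subunit of RNA polymerase I, changed by -0.50 ± 0.06. Taf1a, of the polymerase I initiation complex, moved the other way (1.05 ± 0.10), and Gar1 changed by -0.49 ± 0.14. The call of Gar1 ended without Wt Leu 1, Wt Leu 2 or Wt Leu 3 (adjusted p up to 0.0867). It also ended with the GC correction, all 18 libraries in the fit, or the replicate number as a block, corrected or not (up to 0.134). Without Wt Unstarved 1 the value of Gar1 was -0.27. Of 37 translation factors 11 fell and 5 rose, with Eif5 at -0.74 ± 0.07, Eif4a2 at 0.49 ± 0.06 and Eif3a at 0.44 ± 0.07. Of 17 genes that host small nucleolar RNAs 3 rose (17.6%) and 6 fell (35.3%), against 15.5% and 14.1% of all tested genes. Their median was -0.13, and the falls numbered 3 without Wt Unstarved 1. Snhg1 and Zfas1 were among the rises, at 0.92 ± 0.09 and 0.75 ± 0.13, while Dancr, named above, fell.

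Signalling and pluripotency genes moved in both directions. Of 22 immediate early genes 5 rose and 8 fell (median -0.29). Fosl1 (FRA1), a subunit of AP-1, stood at 0.986, 1.12 and 1.51 CPM in Wt Leu, against 3.59, 4.26 and 4.23 CPM in Wt Unstarved (log2 fold change -1.74 ± 0.19, edgeR adjusted p = 5.77e-06), and Ier3 changed by -1.09 ± 0.15. Myc, a growth-promoting factor, stood at 81.5, 76.96 and 84.2 CPM in Wt Leu, against 109.7, 107 and 109.9 CPM in Wt Unstarved (log2 fold change -0.43 ± 0.06, edgeR adjusted p = 4.92e-05), lower in every starved library. Of 31 FGF and Notch genes 6 rose and 10 fell, with the Notch ligands Dll1 and Dll4 at 1.47 ± 0.10 and 1.29 ± 0.36 and the Notch feedback gene Nrarp and growth factor Fgf15 at -0.93 ± 0.12 and -0.93 ± 0.12. The phosphatases Dusp4, Dusp8 and Dusp2, which switch off MAP kinases, changed by 1.18 ± 0.10, 1.00 ± 0.18 and -0.75 ± 0.21.

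The core pluripotency factors moved by small amounts or were not called. Pou5f1 (OCT4) stood at 2067, 2093 and 2298 CPM in Wt Leu, against 2493, 2398 and 2814 CPM in Wt Unstarved (log2 fold change -0.26 ± 0.07, edgeR adjusted p = 0.0115). The call of Pou5f1 ended without Wt Leu 1, Wt Leu 2 or Wt Unstarved 3 (adjusted p up to 0.0711). With the GC correction its value was -0.15. Nanog and Sox2 were not called, at 0.03 ± 0.06 and -0.05 ± 0.06 (adjusted p = 0.721 and 0.573 in edgeR). Of 26 naive pluripotency genes 9 rose and 6 fell (3 without Wt Leu 1), with a median of 0.03. Beside Klf2, the naive factors Tbx3 and Klf5 changed by 0.83 ± 0.07 and 0.44 ± 0.07, and Fgf4, a growth factor of the pluripotent state, by -0.45 ± 0.06. Of 25 primed and lineage genes 3 rose (12%) and 3 fell (12%), against 15.5% and 14.1% of all tested genes. Among them the lineage transcription factors Gata2, Eomes and Pou3f1 changed by 1.17 ± 0.15, -1.05 ± 0.15 and -0.57 ± 0.09. None of 15 two-cell-like genes was called by edgeR, DESeq2 or limma-voom, and none had an unadjusted p under 0.05 in edgeR. The list summed to only 26.94 to 33.42 CPM in Wt Leu and 26.8 to 36.65 CPM in Wt Unstarved. Its highest member averaged 6.237 CPM in Wt Leu, and 2 listed genes stood at 0 in all 6 libraries. At such levels a lack of calls does not show a lack of change. Several of those genes have near-identical copies whose reads may be shared.

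Other lists were mixed. Of 24 genes of ER chaperones and the unfolded protein response 7 rose and 4 fell (median -0.03). Herpud1, of ER-associated degradation and also an ATF4 target, stood at 56.7, 68.2 and 67.4 CPM in Wt Leu, against 34.6, 21.9 and 31.03 CPM in Wt Unstarved (log2 fold change 1.13 ± 0.14, edgeR adjusted p = 0.000107), while Xbp1 and Ern1, the factor and sensor of another branch, changed by -0.42 ± 0.09 and -0.42 ± 0.10. None of 19 heat shock genes rose in edgeR, DESeq2 or limma-voom (1 at an unadjusted p under 0.05 in edgeR) and 4 fell, with the HSP40 gene Dnajb1 at -0.76 ± 0.08 and the HSC70 gene Hspa8 at -0.65 ± 0.06. Of 33 replication genes 10 rose (6 without Wt Leu 2) and 5 fell, with the transcription factor E2f2 at -0.82 ± 0.16, the clamp-loader subunit Rfc3 at -0.69 ± 0.06 and the helicase factors Mcm10 and Gins1 at 0.45 ± 0.06 and -0.44 ± 0.07. Among 25 genes of glycolysis and the hypoxia response 4 rose (16%) and 8 fell (32%), against 15.5% and 14.1% of all tested genes. The rises included Pfkfb3, a regulator of glycolysis, at 0.93 ± 0.08 and Vegfa at 0.59 ± 0.14. Of 22 SR splicing factors 8 rose and 3 fell, with Tra2a at 0.67 ± 0.07, Son at 0.47 ± 0.06 and the SR kinase Clk1 at 0.38 ± 0.07, or 0.21 with the GC correction. The higher calls of the heat shock list numbered 1 without Wt Unstarved 2. The lower calls of the SR list numbered 1 without Wt Leu 1.

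Loss of leucine was also set directly against loss of arginine, which tested where the 2 starvations differ. Of 16140 genes, 847 (5.25%) were higher and 768 (4.76%) lower in Wt Leu than in Wt Arg, 10.0% in all, of which 13 (0.0805%) and 16 (0.0991%) differed by a log2 of at least 1. Same-numbered Wt Leu and Wt Arg libraries deviated together, and with the replicate number as a block the calls numbered 3328. Without Wt Arg 2, Wt Arg 3, Wt Leu 2 or Wt Leu 3 they numbered 871, 1022, 1023 and 987. SR splicing factors, which shape exon choice, were higher in Wt Leu in 14 of 22 and lower in 0 (3 at an unadjusted p under 0.05 in edgeR, 1 in DESeq2 and 0 in limma-voom), with a median difference of 0.32 against 0.00 over all genes. Srsf7 stood at 513, 571 and 495 CPM in Wt Leu, against 315, 355 and 315 CPM in Wt Arg (log2 difference 0.68 ± 0.07, edgeR adjusted p = 1.22e-05). In Wt Unstarved it stood at 461, 469.7 and 460.1 CPM. Srsf4 differed by 0.59 ± 0.08, and neither gene overlapped between the starved groups. Both were chosen after their values were seen.

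The genes of largest difference between the 2 starvations were led by Fgf18, a growth factor, and Zfp771 on the higher side. Those of largest difference were chosen among called genes without overlap between Wt Leu and Wt Arg, so that lack of overlap is no further result. Fgf18 stood at 8.97, 10.5 and 10.3 CPM in Wt Leu, against 4.37, 4.54 and 4.62 CPM in Wt Arg (log2 difference 1.14 ± 0.11, edgeR adjusted p = 9.49e-06), and in Wt Unstarved at 14.2, 15.6 and 16.02 CPM. Zfp771, a zinc finger protein, stood at 41.2, 35.7 and 36.03 CPM in Wt Leu, against 20.1, 17.1 and 17.9 CPM in Wt Arg (log2 difference 1.04 ± 0.09, edgeR adjusted p = 3.24e-06), and in Wt Unstarved at 38.7, 34.7 and 40.6 CPM. Its Wt Leu libraries overlapped the unstarved ones, and its Wt Arg libraries lay below the unstarved ones. The splicing genes Prpf38a, U2af1 and Luc7l3 differed by 0.94 ± 0.07, 0.89 ± 0.11 and 0.87 ± 0.06. Ngdn differed by 0.91 ± 0.06, Tmem109 by 0.94 ± 0.08, Vav2, a guanine nucleotide exchange factor, by 0.90 ± 0.07, Zfp296 by 0.89 ± 0.09 and the predicted gene Gm10232 by 1.02 ± 0.16. On the lower side Slc2a4 (GLUT4), a glucose transporter, stood at 3.15, 3.29 and 3.07 CPM in Wt Leu, against 8.71, 7.28 and 7.61 CPM in Wt Arg (log2 difference -1.30 ± 0.13, edgeR adjusted p = 1.09e-05), and in Wt Unstarved at 1.36, 1.15 and 1.3 CPM. Hrk stood at 14.97, 21.3 and 20.3 CPM in Wt Leu, against 28.5, 37.9 and 36.9 CPM in Wt Arg (log2 difference -0.86 ± 0.14, edgeR adjusted p = 0.00245), and Bhlhe41 at 30.3, 43.9 and 33.9 CPM in Wt Leu, against 61.8, 72 and 55.01 CPM in Wt Arg (log2 difference -0.80 ± 0.12, edgeR adjusted p = 0.0015). These 3 were thus higher without arginine than without leucine. Vldlr differed by -0.96 ± 0.14, Bhlhe40 by -0.81 ± 0.09, Egr1, an immediate early factor, by -0.88 ± 0.11, Gm45847 by -0.96 ± 0.17, Rfesd by -0.83 ± 0.11, Insm1 by -0.75 ± 0.12 and Gata2 by -0.74 ± 0.13. The call of Insm1 ended with all 18 libraries in the fit (adjusted p up to 0.0566). The call of Gm45847 ended with all 18 libraries in the fit (adjusted p up to 0.0686).

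Within the stress programme the 2 starvations did not rank the same way for every gene. Ddit3 stood at 57.1, 61.6 and 60.6 CPM in Wt Leu, against 32.5, 35.9 and 36.9 CPM in Wt Arg (log2 difference 0.77 ± 0.14, edgeR adjusted p = 0.00592), higher without leucine. Slc7a11 stood at 3.43, 2.88 and 2.71 CPM in Wt Leu, against 6.07, 6.22 and 6.28 CPM in Wt Arg (log2 difference -1.05 ± 0.17, edgeR adjusted p = 0.00111), lower without leucine. Chac1 stood at 92.2, 107 and 107 CPM in Wt Leu, against 158, 160.4 and 167 CPM in Wt Arg and was not called (log2 difference -0.67 ± 0.21, edgeR adjusted p = 0.106), though a fit of only those 6 libraries called it (adjusted p = 4.91e-05 in edgeR). Of the 24 ATF4 effectors 1 was higher in Wt Leu than in Wt Arg (Jmjd6) and 8 were lower, or 2 and 10 with the block. Of the 52 lysosomal genes 1 was higher (Atp6v0e, a subunit of the proton pump; 0 without Wt Arg 1, Wt Arg 3, Wt Leu 1, Wt Leu 2 or Wt Leu 3 and with all 18 libraries in the fit) and 15 were lower. The lower ones numbered 8 without Wt Arg 2, and 6 without Wt Arg 3, and 9 without Wt Leu 1 or Wt Leu 3, and 22 with the block. Mcoln1 differed by -0.52 ± 0.08, and Ctns, the cystine exporter, by -0.56 ± 0.07, which was chosen after its value was seen. Of 17 clock genes 6 were lower and 0 higher (0 higher at an unadjusted p under 0.05 in edgeR, 0 in DESeq2 and 0 in limma-voom), or 9 lower with the block.

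**Figure D4:**
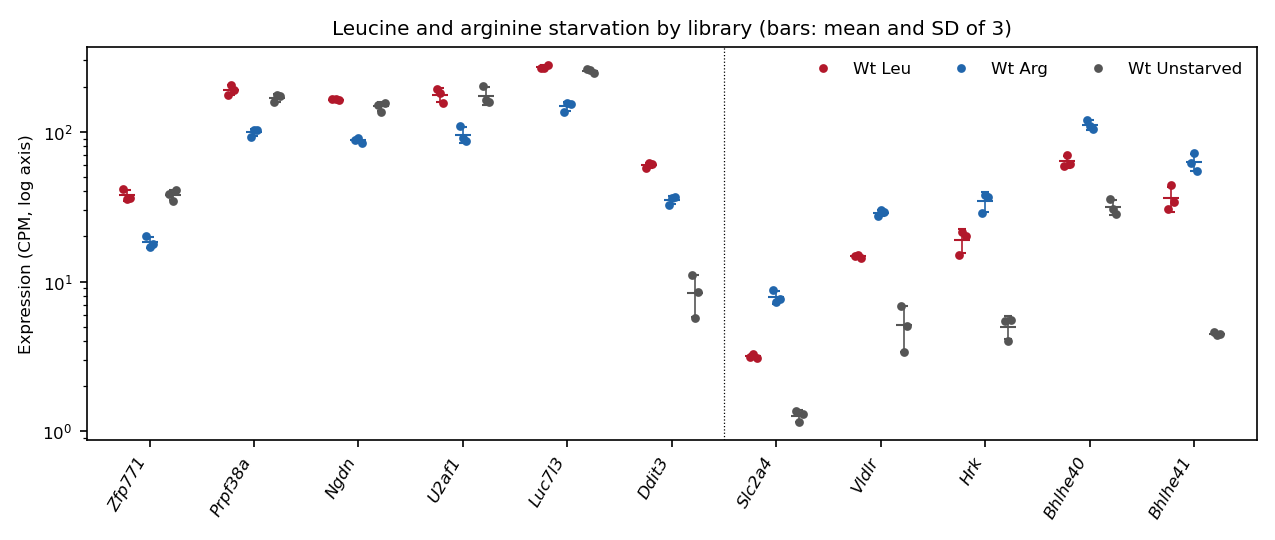
CPM per library on a log axis in Wt Leu, Wt Arg and Wt Unstarved for 6 genes higher and 5 genes lower in Wt Leu than in Wt Arg, with points for libraries and bars at group means. For Bhlhe41 the Wt Leu points sit between the Wt Arg and the Wt Unstarved points.

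Whether wild type responded differently from cells without GCN2 was tested as the leucine change in Wt minus the leucine change in Gcn, over all 18 libraries and 16924 genes. Values from here on are scaled over those 18 libraries and differ slightly from those above. The 3 Gcn libraries numbered 1 stood apart from the other 6 Gcn libraries, at -27.1 to -22.2 on the second principal component of those 9 libraries, which carried 19.8% of the variance, where the other 6 lay at 6.36 to 16.9. Differences were called for 139 genes (0.821%), 113 with a higher change in Wt (0.668%) and 26 with a lower one (0.154%), and for 128 without those 3 libraries. Same-numbered Gcn Leu and Gcn Unstarved libraries deviated together from their group means (r = 0.499, 0.272 and 0.212, across genes), while for Wt Leu and Wt Unstarved 1 of the 3 values was near 0 (0.23, 0.0544 and 0.203). With the replicate number as a block the calls numbered 1878, and blocked values are given where they add a call. The split depended on scaling, at 77 and 80 with library size alone and 197 and 80 with a correction for GC content. Calls numbered 82 without Gcn Leu 2, 257 without Gcn Leu 3, 85 without Gcn Unstarved 1, 74 without Gcn Unstarved 2, 91 without Wt Leu 1, 87 without Wt Leu 2, 85 without Wt Leu 3 and 80 without Wt Unstarved 3.

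Among the ATF4 effectors, 12 of 24 had a higher change in Wt and 0 a lower one (2 lower at an unadjusted p under 0.05 in edgeR, 0 in DESeq2 and 0 in limma-voom), with a median difference of 0.75 against 0.01 over all genes. Chac1 stood at 92.2, 108 and 108 CPM in Wt Leu, against 37.8, 17.7 and 28.2 CPM in Wt Unstarved. In the knock-out it stood at 4.57, 3.81 and 5.89 CPM in Gcn Leu, against 28.6, 22.6 and 18.7 CPM in Gcn Unstarved (difference 4.15 ± 0.32, edgeR adjusted p = 2.66e-06). Trib3 stood at 17.6, 14.4 and 16.1 CPM in Gcn Leu, against 68.1, 58.4 and 55.9 CPM in Gcn Unstarved, a change of -1.92 against 1.23 in wild type (difference 3.15 ± 0.22, edgeR adjusted p = 1.19e-07). Herpud1 stood at 13.99, 14.4 and 13.4 CPM in Gcn Leu, against 47.7, 42.8 and 38.1 CPM in Gcn Unstarved (difference 2.76 ± 0.18, edgeR adjusted p = 1.09e-08). In all 3 genes every Gcn Leu library lay below every Gcn Unstarved one. Ddit3 stood at 15.3, 20.5 and 18.2 CPM in Gcn Leu, against 15.01, 16.4 and 15.5 CPM in Gcn Unstarved (difference 2.62 ± 0.23, edgeR adjusted p = 8.84e-07), with overlapping knock-out libraries. Atf4 stood at 338, 343 and 309.9 CPM in Gcn Leu, against 435, 402 and 385 CPM in Gcn Unstarved, with every leucine-starved knock-out library lower (difference 0.91 ± 0.13, edgeR adjusted p = 0.000343).

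Other genes of this set behaved in the same direction. Slc6a9 differed by 2.64 ± 0.18, Vldlr by 2.33 ± 0.34, Gdf15, a stress cytokine, by 2.27 ± 0.19, Stc2 by 2.27 ± 0.26, Nupr1, a stress-induced chromatin protein, by 2.04 ± 0.24 and Cebpb by 1.84 ± 0.20. Inhbe differed by 4.11 ± 0.39, Slc7a11 by 3.14 ± 0.48 and Atf3 by 1.83 ± 0.29. For Slc7a5 the wild-type change was -0.01 and the knock-out change -0.66 (difference 0.65 ± 0.12, edgeR adjusted p = 0.0081), so the leucine exchanger differed between genotypes although wild type alone gave no call. Its partner Slc3a2 differed by 0.72 ± 0.11. Asns and Lars were not called, at 0.26 ± 0.13 and 0.55 ± 0.13 (adjusted p = 0.367 and 0.0518 in edgeR), but with the replicate block both were (0.00816 and 0.000125). Lars was also called with DESeq2 (0.0096), no filter (0.00217), the 1 CPM filter (0.0481) and the GC correction (0.0335), without Gcn Leu 1 (adjusted p = 0.0229), without Wt Leu 2 (0.0387) and without the 3 Gcn libraries numbered 1 (0.0351), so its side of the threshold depends on the fit. Among genes with a lower change in Wt, Btg2 differed by -0.88 ± 0.17, Cdkn1a (p21), a cell cycle inhibitor, by -0.80 ± 0.15, Rpp25l by -0.83 ± 0.14, Itpripl1 by -0.70 ± 0.14 and Slc35a4 by -0.60 ± 0.11. Epp13, Gfod2, Rhob, Pqlc1 and 9930104L06Rik differed by -0.74 ± 0.17, -0.66 ± 0.14, -0.58 ± 0.12, -0.55 ± 0.13 and -0.55 ± 0.12. The call of Epp13 ended without Gcn Leu 1, Gcn Unstarved 1, Gcn Unstarved 2, Gcn Unstarved 3, Wt Leu 1, Wt Leu 2, Wt Unstarved 1 or Wt Unstarved 3 (adjusted p up to 0.123), and with only the groups compared in the fit (up to 0.0839). The call of Gfod2 ended without Gcn Leu 2, Gcn Unstarved 1, Gcn Unstarved 2, Wt Leu 1, Wt Leu 2 or Wt Unstarved 3 (adjusted p up to 0.078), and with only the groups compared in the fit (up to 0.0503). The call of Rhob ended without Gcn Leu 2, Gcn Unstarved 1, Gcn Unstarved 2, Wt Leu 2, Wt Unstarved 1 or Wt Unstarved 3 (adjusted p up to 0.0839). The call of Pqlc1 ended without Gcn Leu 1, Gcn Leu 2, Gcn Unstarved 1, Gcn Unstarved 2, Wt Leu 1, Wt Leu 2, Wt Leu 3 or Wt Unstarved 3 (adjusted p up to 0.142), and with only the groups compared in the fit (up to 0.0926). The call of 9930104L06Rik ended without Gcn Leu 2, Gcn Unstarved 2, Wt Leu 1, Wt Leu 2, Wt Leu 3, Wt Unstarved 1 or Wt Unstarved 3 (adjusted p up to 0.0966). Without the 3 Gcn libraries numbered 1, Epp13, Gfod2 and Pqlc1 also lost their calls (adjusted p = 0.137, 0.0742 and 0.0881 in edgeR).

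Several leading genes of the wild-type response showed no called difference in the fit without the block. Bhlhe41 stood at 22.1, 27.9 and 24.3 CPM in Gcn Leu, against 3.61, 3.14 and 3.93 CPM in Gcn Unstarved, a change of 2.80 against 3.01 in wild type (difference 0.21 ± 0.21, edgeR adjusted p = 0.731). Txnip stood at 562, 493 and 444 CPM in Gcn Leu, against 174, 146 and 136 CPM in Gcn Unstarved (difference -0.01 ± 0.14, edgeR adjusted p = 0.994). Mcoln1 stood at 34.7, 33.3 and 30.6 CPM in Gcn Leu, against 21.4, 18.2 and 20.5 CPM in Gcn Unstarved (difference 0.01 ± 0.13, edgeR adjusted p = 0.982). In each of the 3 every Gcn Leu library lay above every Gcn Unstarved one. For Klf10, Crebrf and Cbr3 the differences were -0.18 ± 0.11, 0.59 ± 0.15 and -0.24 ± 0.19 (adjusted p = 0.518, 0.0588 and 0.639 in edgeR). Crebrf was called with the replicate block (adjusted p = 0.00026 in edgeR), DESeq2 (0.0131), no filter (0.00379) and the GC correction (0.0315), without Gcn Leu 3 (0.0121) and without Wt Unstarved 2 (0.0168), and Klf10 with the block and the GC correction together (0.0459). None of the 52 lysosomal genes was called by edgeR, where 4 had a higher and 4 a lower change in Wt at an unadjusted p under 0.05, and limma-voom called 0 and 0 and DESeq2 2 and 0 (in edgeR, higher calls numbered 1 without Gcn Leu 1). With the replicate block edgeR called 4 higher and 3 lower. A missed threshold does not show that the genotypes respond alike.

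**Figure D5:**
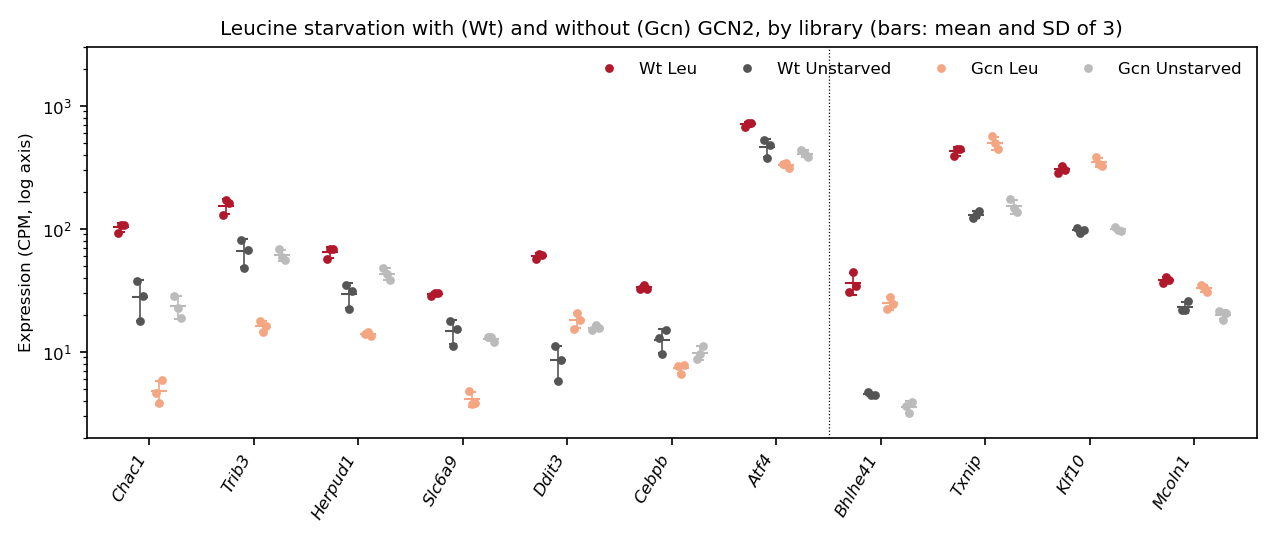
CPM per library on a log axis in Wt Leu, Wt Unstarved, Gcn Leu and Gcn Unstarved for 7 genes whose leucine change differed between genotypes and 4 whose difference was not called, with points for libraries and bars at group means. The Gcn Leu points of Chac1 lie below its Gcn Unstarved points, while those of Bhlhe41 lie above.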

How the data were processed

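RNA was measured in 18 libraries of E14 cells, 3 in each of 6 groups. Per the labels' protocols, poly(A) RNA was made into directional libraries and sequenced in 1 kit as 2 reads of 43 bp per fragment. Per the submitters' processing notes, reads were handled with STAR 2.7.4a, HTSeq, bcl2fastq and FastQC 0.11.7, with DESeq 1.30.1, DESeq2 and R 4.0.3 also named, on build GRCm38. How strand was treated in counting, and the annotation release, are not given in the sources used, so overlapping genes may share reads. The authors deposited raw whole-number counts per Ensembl gene, 1 table per genotype. Of 55471 identifiers 55144 had a symbol. The authors' size-factor-normalized tables were not used.

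Counts were tested with edgeR 4.0.16 under R 4.3.3 (filterByExpr, TMM scaling, robust quasi-likelihood F test, Benjamini-Hochberg adjustment, called under 0.05). The wild-type contrasts used the 9 Wt libraries, and the difference between genotypes all 18. SEs were obtained as |log2 fold change| over the root of the F statistic. Named genes were the 20 higher and 15 lower of largest change with a mean of at least 5 CPM and no overlap, up to 4 called members per list described, a set of GCN2, leucine and pluripotency genes named whether called or not, and 10 in each direction for each further contrast. For Wt Leu against Wt Arg those genes met the same conditions of level and overlap. For the difference between genotypes they were also called in Wt Leu against Wt Unstarved, with a mean of at least 5 CPM. Genes outside this rule are said to be so. Among the genes the rule picks, 1 is not reported here and was left out of the lists and figures. Members, lists and motifs were chosen with earlier results of these data known, and the membership of the leucine-sensing list was corrected after the data were seen. Lists are described by counts and medians only, with no test of the list.

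Alternatives were DESeq2 1.42.0, limma-voom (limma 3.58.1), other scalings and filters, other sets of libraries in the fit, the replicate number as a block, and leaving out each library. A GC correction, alone and with the block, and the fit without the 3 Gcn libraries numbered 1 were added after the data were seen. The fits were tested on simulated data. Same-numbered Wt Leu and Wt Arg libraries deviated together from their group means (r = 0.296, 0.2 and 0.32, across genes). Blocked values therefore stand beside several counts of that contrast. Total counts were 21.3 to 32.7 M (mega) per Wt library and 24.1 to 38.8 M per Gcn Leu or Gcn Unstarved library. No pair of Wt replicates was a duplicate (chi-square per degree of freedom 7.46 to 22.6). Promoter windows came from the RefSeq table of GRCm38.p6, matched by symbol.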

Additional observations from a re-analysis of the deposited data

Results flagged for a closer look

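The following genes passed an adjusted p of 0.05 in edgeR's test of the difference itself, with 3 libraries per group. That difference is the leucine change in Wt minus the leucine change in Gcn. The listed genes are those named above among 139 that passed, picked by the rule for named genes, and are not the full set. The wild-type change was the higher one on the log2 scale by 4.15 for Chac1, 4.11 for Inhbe, 3.15 for Trib3, 3.14 for Slc7a11, 2.76 for Herpud1, 2.64 for Slc6a9 and 2.62 for Ddit3. It was higher by 2.33 for Vldlr, 2.27 for Gdf15, 2.27 for Stc2, 2.04 for Nupr1, 1.84 for Cebpb and 1.83 for Atf3, and by 0.91 for Atf4, 0.72 for Slc3a2 and 0.65 for Slc7a5. The difference was negative for Btg2 (-0.88), Rpp25l (-0.83), Cdkn1a (-0.80), Itpripl1 (-0.70) and Slc35a4 (-0.60), and for Epp13 (-0.74), Gfod2 (-0.66), Rhob (-0.58), Pqlc1 (-0.55) and 9930104L06Rik (-0.55), of which the last 5 lost their calls when single libraries were left out. Groups of 3 libraries were not searched for outlying samples.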

How the results depend on the processing

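The 4772 calls between Wt Leu and Wt Unstarved lay between 3706 and 6555 under the other settings, and between 3749 and 4536 with 1 library left out, and no shared call changed sign. With the replicate number as a block the calls numbered 6555, but same-numbered Wt Leu and Wt Unstarved libraries share only a number (r = 0.23, 0.0544 and 0.203, across genes). Each Wt Leu library correlated best with its own number, a hint from the data and not from the design. Of the single-gene values under other settings 148 lost and 26 gained a call, 3812 kept direction and call, and 28 near 0 changed sign.

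Between Wt Leu and Wt Arg, 1615 calls (847 higher, 768 lower) became 3328 (1717 and 1611) with the replicate block, 3253 (1504 and 1749) with replicate block plus GC correction, and 916 (510 and 406) with all 18 libraries in the fit. With 1 library left out they ran from 871 to 1258, with 463 to 726 higher and 408 to 532 lower.

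The difference between genotypes, 139 calls (113 and 26), became 391 (263 and 128) with DESeq2, 353 (243 and 110) with no filter, 1878 (1129 and 749) with the replicate block, 1836 (1032 and 804) with replicate block plus GC correction, and 277 (197 and 80) with the GC correction alone. The lower ones numbered 80 with library size only, 49 with the 1 CPM filter and 14 with only the groups compared. With 1 library left out the calls ran from 74 to 257, with 65 to 187 higher and 9 to 70 lower. The causes were not tested.

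Reversals touched values near 0 that were not called. In wild type, Slc7a5 came to 0.014 with library size only, 0.074 with the GC correction, 0.075 with block and GC correction together, and -0.066 to 0.036 with 1 library left out. Ddit4 came to 0.032 with the GC correction and 0.025 with block and GC correction together, and Sesn1 to -0.016 to 0.10 with 1 library left out. For the difference between genotypes, Mcoln1 came to -0.055 with library size only, -0.005 with no filter, -0.008 without the 3 Gcn libraries numbered 1, and -0.041 to 0.10 with 1 library left out. Txnip came to 0.00 with only the groups compared and -0.114 to 0.088 with 1 library left out, and Eif2ak4 to -0.191 to 0.083.

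Chac1 between Wt Leu and Wt Arg was called only with the groups compared alone in the fit. The lowest levels named, those of Slc7a8, Slc7a11, Fosl1 and Slc2a4, rest on the fewest reads. With the GC correction, list counts that moved over 1.5 times included heat shock falls (7, not 4), rises of primed and lineage genes (5, not 3) and of the mTORC1 list (4, not 2), lysosomal falls (2, not 0) and clock falls (0, not 1). With all 18 libraries in the fit, rises numbered 6, not 10, among cytosolic synthetases and replication genes, and falls 7, not 11, among translation factors and 4, not 8, among glycolysis and hypoxia genes. With no filter, ribosomal protein falls numbered 17, not 8.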
